A study of Mus musculus with 6 samples.

Results

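RNA-seq of GFP+ mammary epithelial cells (MECs) was used to describe 6 collagen chain genes, Col4a5, Col4a6, Col9a2, Col9a3, Col11a1 and Col27a1. They were chosen by name from the 651 genes of the deposited gene tables, as basement membrane and cartilage-type collagens without collagen VII and XVII, and all 6 were found. MECs of WT.GFP+ donors and of their ERα−/−.GFP+ littermates, which lack oestrogen receptor α in every cell, were grafted through the milk ducts, one genotype on each side, into glands of NSG females, an immunodeficient mouse strain, and GFP+ cells were sorted from the glands during pregnancy for 3 WT.GFP+ and 3 ERα−/−.GFP+ samples. Both donor genotypes carry GFP under a β-actin promoter on a C57BL/6 background, single cell suspensions were made from pooled glands, and neither the age of the donors nor the day of pregnancy of these samples is given in the sources used here. The tables give each gene as a mean over the samples of a genotype and hold only genes that passed the authors' thresholds for a difference between the genotypes. Values of single samples were not analysed here, so the spread between replicates is unknown, no test was run, and every difference is a description. The columns name the genotypes only as selections. Which selection is which genotype, and with it every direction, was taken as set in advance for this report. The other ground is the paper's statement that most of these genes were lower in ERα−/−.GFP+ MECs. Esr1, the targeted gene, was in neither table and could not check the assignment.

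Collagens are trimers of chains in which glycine recurs at intervals of 3 residues, so that the chains can wind into a triple helix. Collagen IV forms the sheet-like network of basement membranes, the thin matrix on which the mammary epithelium rests and which its basal, myoepithelial cells touch directly. The chains of Col4a5 and Col4a6 join in one trimer found in the basement membranes of epithelia and smooth muscle. Collagen IX decorates the surface of cartilage fibrils, collagen XI is a minor fibrillar collagen that sets the width of those fibrils, and collagen XXVII is a fibrillar collagen known from developing cartilage.

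The coding sequences show what the chains share. In the transcript with the longest coding sequence of each gene (GENCODE release M21, GRCm38), codons that start with GG, which encode glycine, were searched for at intervals of 3 codons, and a run was counted from 3 such triplets on. A run of at least 20 triplets was found in 64 of 21471 protein coding genes, or 0.298%. These included all 44 genes with a collagen chain symbol and 20 others. Among the 579 listed genes that could be read, 8 had such a run, the 6 chains described here with Col7a1 and Col17a1. All 8 were lower in ERα−/−.GFP+ MECs, as were 86.9% of the 651 listed genes, so this is not a finding about the repeat. To show the repeat, the first 54 bases that lie in a single exon within the longest such run are given for each chain, read 5′ to 3′ on the strand of the gene, with the GG that opens each triplet in capitals.
Col4a5, exon 44, chrX:141666850-141666903, plus strand: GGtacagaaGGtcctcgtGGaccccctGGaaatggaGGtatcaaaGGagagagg
Col4a6, exon 27, chrX:141192057-141192110, minus strand: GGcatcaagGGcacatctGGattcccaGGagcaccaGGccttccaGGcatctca
Col9a2, exon 12, chr4:121045141-121045194, plus strand: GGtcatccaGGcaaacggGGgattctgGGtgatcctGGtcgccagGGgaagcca
Col9a3, exon 13, chr2:180605727-180605780, plus strand: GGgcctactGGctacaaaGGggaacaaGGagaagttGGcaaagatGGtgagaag
Col11a1, exon 15, chr3:114108281-114108334, plus strand: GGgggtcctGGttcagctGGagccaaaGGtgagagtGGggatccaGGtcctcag
Col27a1, exon 7, chr4:63245069-63245122, plus strand: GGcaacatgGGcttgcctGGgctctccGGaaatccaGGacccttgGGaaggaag

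The repeat was laid out by collagen type. Col4a5 and Col4a6 both had 1691 codons, and their triplets were divided into 23 and 25 runs, the longest of 42 and 45 triplets. Col9a2 and Col9a3 were the shortest chains of the 6, at 688 and 680 codons, and each had 6 runs with a longest run of 113 triplets. Of the 365 triplets of Col11a1, 338 formed 1 run, and Col27a1 had 3 runs with a longest of 217 triplets. The share of codons within runs was 78.8% in Col4a5, 76.1% in Col4a6, 85.0% in Col9a2, 85.6% in Col9a3, 60.7% in Col11a1 and 53.5% in Col27a1. The fibrillar chains therefore had the lowest shares of the 6. Their first runs began at codon 359 in Col11a1 and 610 in Col27a1, against codons 25 to 47 in the other chains. The exons divided the chains differently. Coding exons of exactly 54 bases, which hold 6 triplets, numbered 31 of 67 in Col11a1, 33 of 61 in Col27a1 and 14 of 32 in both Col9a2 and Col9a3, but 3 of 53 in Col4a5 and 2 of 45 in Col4a6.

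**Figure D1:**
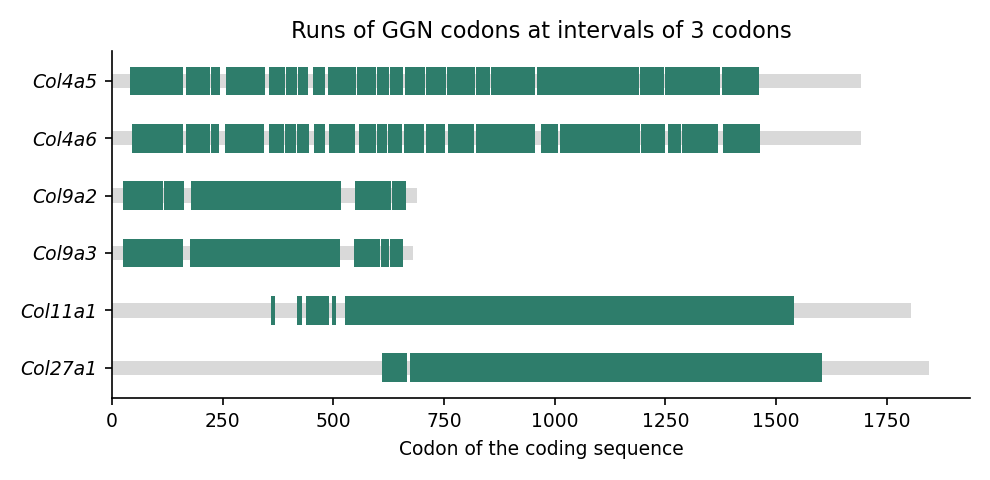
Runs of at least 3 triplets that open with a GGN codon (green) along the coding sequence of each chain (grey), with the codon number on the x axis. The collagen IV chains are broken into 23 and 25 runs, and Col9a2 and Col9a3 show nearly the same layout of 6 runs. Col11a1 has 5 runs, of which the last, from codon 527 to 1540, is by far the longest. The 3 runs of Col27a1 lie close together, with a break between codons 666 and 673 and another of 1 codon, after codon 1323, too narrow to be seen.

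All 6 chains were lower in ERα−/−.GFP+ than in WT.GFP+ MECs, by 2.66-fold to 3.98-fold on the authors' mean log2 CPM (reads of a gene scaled to the library size, CPM, on the log2 scale). Since a gene had to differ to be listed and 86.9% of the 651 listed genes were lower, this direction is not a finding about collagens. The median difference of the 6 chains, ERα−/−.GFP+ minus WT.GFP+, was −1.79 on the log2 scale, beside −1.65 over all listed genes and −1.74 over the 566 lower ones. Of the 6 chains, 5 were more than 3-fold lower, as were 55.8% of the listed genes, and 0 were more than 4-fold lower, against 24.6% of the listed genes. In bulk samples, fewer cells of a type and less RNA per cell cannot be told apart. The counting intervals below use the reads summed over the samples of a genotype (mean count times 3) and a depth per sample of about 27190483 reads in WT.GFP+ against 29326709 in ERα−/−.GFP+, estimated from the tables. They cover counting error only, and neither the spread between samples nor PCR duplicates.

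The collagen IV chains had the largest differences of the 6 on the mean log2 CPM scale, whereas on depth-scaled mean counts Col4a5 and Col11a1 were both at −1.88. Col4a5 (ENSMUSG00000031274) lies on chromosome X from 141475385 to 141689234 on the plus strand of GRCm38. Its authors' mean count was 2585 reads in WT.GFP+ against 756.3 in ERα−/−.GFP+ MECs. The mean log2 CPM of Col4a5 was 6.51 and 4.52, a difference of −1.99, which left 25.1% of the WT.GFP+ level. From the mean counts scaled for depth, the difference was −1.88 with a 95% counting interval of −1.95 to −1.81, so that for this gene the authors' mean of log values lay outside the interval. Col4a6 (ENSMUSG00000031273) lies beside it on chromosome X from 141165403 to 141474076 on the minus strand. The mean count of Col4a6 was 998.7 reads in WT.GFP+ against 269.0 in ERα−/−.GFP+ MECs, and its mean log2 CPM was 5.16 and 3.19. The difference of −1.97 left 25.4% of the WT.GFP+ level, and the depth-scaled mean counts gave −2.00 (95% counting interval −2.12 to −1.89). The differences of these partner chains were 0.02 apart on the mean log2 CPM scale.

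Col4a5 and Col4a6 are neighbours in a head-to-head arrangement, with 1308 bases between the annotated genes and 1343 bases between their RefSeq start sites. Their other neighbours, Irs4 beyond Col4a5 and Atg4a beyond Col4a6, were in neither table. None of the other 4 chains had an adjacent protein coding gene in the tables. Only 2.67% of all annotated protein coding genes were listed, so an unlisted neighbour is the usual case. Promoter windows from RefSeq (GRCm38.p6) were found for 5 of the 6 chains, all but Col9a3. The windows of the head-to-head pair and of Col11a1 are shown up to the first annotated exon base, 5′ to 3′ on the strand of each gene, because the pair shares its intergenic region and the Col11a1 window held the most motif matches of the 5. Capitals mark matches to GGGCGG (the GC box bound by SP1) or CCAAT (the CCAAT box), on either strand.
Col4a5, chrX:141475169-141475384, plus strand: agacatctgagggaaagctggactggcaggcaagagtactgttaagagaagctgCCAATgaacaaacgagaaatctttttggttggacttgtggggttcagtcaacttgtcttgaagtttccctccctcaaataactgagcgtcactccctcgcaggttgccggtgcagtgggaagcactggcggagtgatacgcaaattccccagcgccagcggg
Col4a6, chrX:141474077-141474326, minus strand: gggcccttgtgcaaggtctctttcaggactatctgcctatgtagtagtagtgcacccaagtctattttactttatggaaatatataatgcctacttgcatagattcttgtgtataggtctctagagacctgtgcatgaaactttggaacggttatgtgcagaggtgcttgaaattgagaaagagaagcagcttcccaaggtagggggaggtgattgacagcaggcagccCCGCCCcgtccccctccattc
Col11a1, chr3:114030290-114030539, plus strand: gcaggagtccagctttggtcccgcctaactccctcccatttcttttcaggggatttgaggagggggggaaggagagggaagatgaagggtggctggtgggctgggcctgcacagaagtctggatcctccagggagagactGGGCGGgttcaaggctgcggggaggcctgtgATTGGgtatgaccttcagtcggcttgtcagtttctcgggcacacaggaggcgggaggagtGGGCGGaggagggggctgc

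Within the 250 bases before the RefSeq start site, GGGCGG was found in the windows of all 5 chains and in 32.7% of all 32851 windows. The match of Col4a5, 30 bases before its start site, lies past the stretch printed. That match and both matches of Col9a2, 26 and 14 bases before its start site, lie in annotated exons of these genes. The Col27a1 window, from 63215162 to 63215411, lies within the annotated gene, which starts at 63214004. CCAAT was found in Col4a5 and Col11a1, and in 33.8% of all windows. The full oestrogen response element, GGTCA and TGACC with any 3 bases between them, was found in none of the 5 windows and in 0.0639% of all windows. TGANTCA (AP-1, 6.75% of windows), TATAAA (the TATA box, 12.4%), CAGGTG (an E-box of the Snai family, 17.2%), AACAAT (SOX, 9.42%) and GGAATG (TEAD, 12.6%) had no match in the 5 windows either. Both strands were searched, several windows may belong to one gene, a match is a run of letters and not a site, and sequence outside these windows was not searched.

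The collagen IX chains were lower by a similar factor to each other. Col9a2 (ENSMUSG00000028626, chromosome 4 from 121039385 to 121055322, plus strand) had a mean count of 912.7 reads in WT.GFP+ against 290.0 in ERα−/−.GFP+ MECs, and its mean log2 CPM was 4.96 and 3.31. The difference of −1.66 corresponds to 3.15-fold, and the depth-scaled mean counts of Col9a2 gave −1.76 (95% counting interval −1.87 to −1.65). Col9a3 (ENSMUSG00000027570, chromosome 2 from 180597790 to 180622189, plus strand) had a mean count of 1032 reads in WT.GFP+ against 313.7 in ERα−/−.GFP+ MECs. Its mean log2 CPM was 5.17 and 3.45, a difference of −1.73 or 3.31-fold, and the depth-scaled mean counts gave −1.83 (95% counting interval −1.93 to −1.72). The differences of both chains were 0.07 apart on the mean log2 CPM scale and their counting intervals overlapped. The annotated exons of Col9a3 share 234 bases, or 6.07% of their length, with those of Tcfl5 on the other strand, and the sources used here do not say whether reads were counted by strand. Tcfl5 was in neither table. Col9a1, which encodes the remaining chain of the collagen IX trimer, was in neither table.

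The fibrillar chains had the lowest levels per kilobase of exon. Col11a1 (ENSMUSG00000027966, chromosome 3 from 114030540 to 114220718, plus strand) had a mean count of 667 reads in WT.GFP+ against 195 in ERα−/−.GFP+ MECs. Its mean log2 CPM was 4.53 and 2.67, a difference of −1.86 or 3.64-fold, close to the −1.88 given by the depth-scaled mean counts (95% counting interval −2.02 to −1.75). Col27a1 (ENSMUSG00000045672, chromosome 4 from 63214004 to 63334991, plus strand) had the fewest reads, with mean counts of 216 in WT.GFP+ against 88.0 in ERα−/−.GFP+ MECs. The mean log2 CPM of Col27a1 was 3.00 and 1.59. Its difference of −1.41, or 2.66-fold, was the smallest of the 6 and left 37.6% of the WT.GFP+ level. The 95% counting interval of Col27a1, −1.62 to −1.20, overlapped with that of no other chain, while among the other 5 only those of Col4a6 and Col9a2 did not overlap. Col11a2 and Col2a1, whose chains join that of Col11a1 in cartilage, were in neither table.

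**Figure D2:**
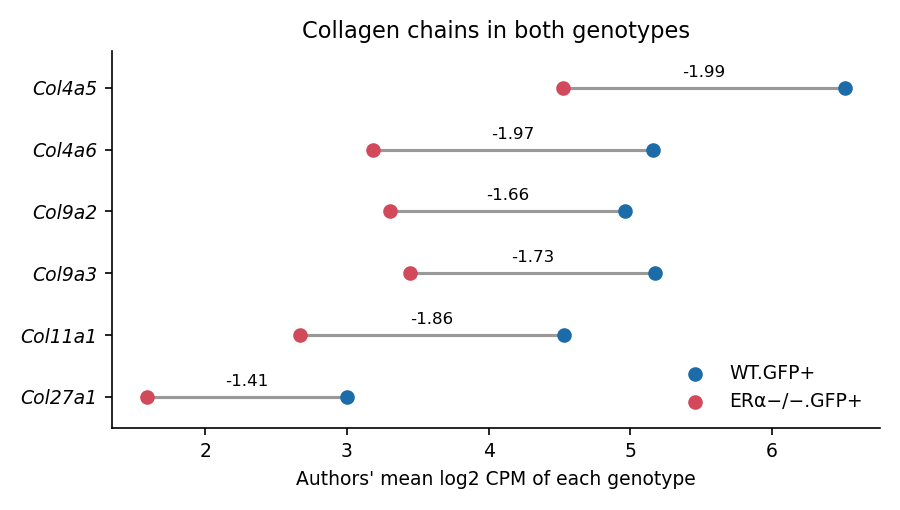
The authors' mean log2 CPM of each collagen chain in WT.GFP+ (blue) and ERα−/−.GFP+ MECs (red), with the difference written above each line. Every red point lies left of its blue point, by 1.41 for Col27a1 up to 1.99 for Col4a5, and no error bars are drawn because values per sample were not used.

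Levels of different genes were compared only per length, as CPM per kilobase of the union of annotated exons, with CPM taken back from the mean log2 CPM. In WT.GFP+ MECs the order was Col4a5 at 13.6, Col9a2 at 10.1, Col9a3 at 9.36, Col4a6 at 4.49, Col11a1 at 1.82 and Col27a1 at 0.614 CPM per kilobase. In ERα−/−.GFP+ MECs the order was the same, from 3.42 for Col4a5 to 0.231 for Col27a1. Col9a2 and Col9a3 were neighbours that changed places when the longest transcript was used as the length, at 10.7 and 11.8 CPM per kilobase in WT.GFP+ MECs. Whether other neighbours in the order differ beyond the spread between samples is unknown. Col4a5 exceeded its partner Col4a6 per kilobase by 3.03 times in WT.GFP+ and by 3.00 times in ERα−/−.GFP+ MECs. The ratio of Col9a2 to Col9a3 per kilobase was 1.08 in WT.GFP+ against 1.13 in ERα−/−.GFP+ MECs. Length cancels between the genotypes, so these ratios only restate that the differences in mean log2 CPM were 0.02 and 0.07 apart. In summed reads, the ratio of Col4a5 to Col4a6 was 2.59 in WT.GFP+ against 2.81 in ERα−/−.GFP+ MECs. With the longest transcript as the length, it was 2.60 against 2.57, and that of Col9a2 to Col9a3 was 0.901 against 0.945. Genes that are not partners can be as close, such as Plch2 at −2.00 beside Col4a6 at −1.97. The levels of both partners were more than 3-fold lower in both pairs.

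**Figure D3:**
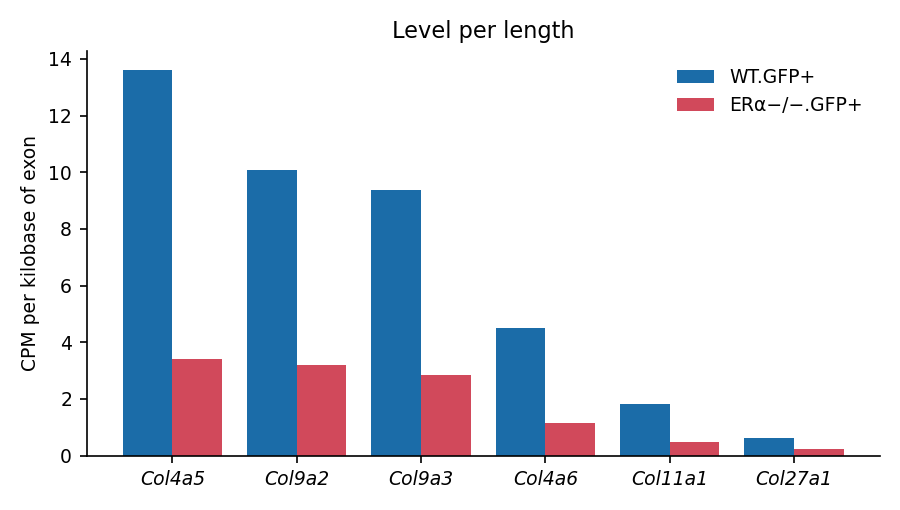
CPM per kilobase of exon of each collagen chain in WT.GFP+ (blue bars) and ERα−/−.GFP+ MECs (red bars), ordered by the WT.GFP+ level. Col4a5 is highest at 13.6 and 3.42, and the order of the 6 chains is the same in both genotypes.

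Among the 566 lower genes, Col4a5 was at position 164 and Col4a6 at 172 by the size of the difference in mean log2 CPM, so that 28.8% and 30.2% of the lower genes had a larger one. Col11a1 was at position 214, Col9a3 at 293, Col9a2 at 322 and Col27a1 at 443. For each chain, the listed gene with the closest pair of mean log2 CPM values, measured as the distance over the 2 genotype means, was looked up. It was Lama3, a laminin α chain, for Col4a5, at a distance of 0.02. For the other chains it was Plch2, a phospholipase C, for Col4a6 (0.07), Mid2, a ubiquitin ligase, for Col9a2 (0.08), Fhdc1 for Col9a3 (0.06), Ntrk3, a neurotrophin receptor, for Col11a1 (0.07) and Tead3, a TEAD transcription factor, for Col27a1 (0.07). With 2 points per gene, these distances describe level and difference only, and the levels in them were not scaled for length.

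**Figure D4:**
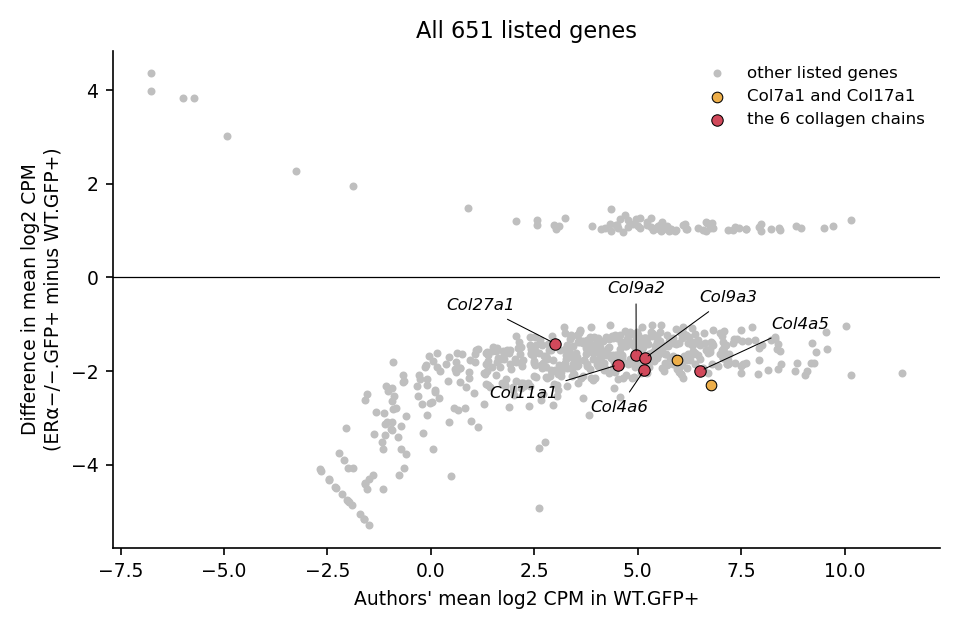
Difference in mean log2 CPM (ERα−/−.GFP+ minus WT.GFP+) against the mean log2 CPM in WT.GFP+ MECs for the 651 listed genes (grey), with the 6 collagen chains (red) and Col7a1 and Col17a1 (yellow). The 6 chains sit within the band of lower genes, between −1.99 and −1.41, and the empty band around 0 is left by the authors' thresholds.

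Of the 38 other collagen chain genes in the annotation, 2 were listed, both lower. Of all 21951 protein coding genes in the annotation, 2.67% were listed, 2.34% as lower and 0.337% as higher, and how many of them the authors tested is not known here. This share includes genes that these cells may not express, so the counts of the gene lists are given beside it as a description. Col17a1, a transmembrane collagen of hemidesmosomes, had a difference of −2.30 and Col7a1, which forms anchoring fibrils under the basement membrane, of −1.76 in mean log2 CPM. The remaining 36 were in neither table, among them Col4a1 and Col4a2, which encode the common collagen IV chains, and Col1a1 and Col3a1 of the interstitial fibrils. A gene outside the tables may have differed by less than the thresholds or been too low to be kept, so these counts do not show equal levels.

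Of a list of 27 other basement membrane genes, 8 were listed, beside 2.67% of all protein coding genes. All 8 were lower, as were 86.9% of the 651 listed genes. The median difference of the 8 was −1.70, beside −1.65 over all listed genes and −1.74 over the 566 lower ones. Among these 8 were Tinagl1, a matricellular protein that binds laminin, with a difference of −1.45, and the laminin chains Lamb3 with −1.06 and Lama1 with −1.89. Of 32 genes of collagen synthesis and cross-linking, which include the prolyl and lysyl hydroxylases and the lysyl oxidases, only Colgalt2, an enzyme that adds galactose to collagen, was listed, at −1.69. Of 18 collagen and matrix receptors, only Itga3, a laminin-binding integrin, was listed, at −1.42. Of 20 matrix proteases and their inhibitors, 0 were listed.

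Of 16 cartilage matrix genes and factors, 3 were listed, beside 2.67% of all protein coding genes. All 3 were lower, as were 86.9% of the 651 listed genes, with a median difference of −1.66 for the 3. Sox9, a transcription factor that controls collagen genes in cartilage and is also found in mammary epithelium, had mean counts of 9020 reads in WT.GFP+ against 3591 in ERα−/−.GFP+ MECs and a difference of −1.52. Fmod, a proteoglycan that binds collagen fibrils, had a difference of −1.98 and Matn4, a matrilin, of −1.66. Of 10 chondrocyte markers, Sox9 was the only one listed, and Col2a1, Acan and Comp were in neither table. Of 10 fibroblast and 10 endothelial and pericyte markers, 0 were listed.

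Listed markers of basal and myoepithelial cells were lower, as the collagen chains were. Of 17 such markers, 14 were listed, all lower, beside 2.34% of all protein coding genes, between −2.09 and −1.82 with a median of −1.96, and their summed mean counts were 190327 reads in WT.GFP+ against 53911 in ERα−/−.GFP+ MECs. None of the 14 was at 0 in either genotype. Col4a5, Col4a6 and Col11a1 lay inside the range of these markers, and the other 3 chains had smaller differences. On depth-scaled mean counts, where the range of the markers was −2.06 to −1.75, only Col27a1 had a smaller difference. Genes of neither kind can lie inside the mean log2 CPM range too, such as Plch2 at −2.00. The share of all listed genes inside it was not counted, so the placement does not tie the chains to these markers. Of 12 luminal and 10 milk genes, 0 were listed. Of 15 markers of T and cytotoxic lymphocytes, 9 were listed, all higher, beside 0.337% of all protein coding genes, with a median difference of 1.11 and summed mean counts of 86427 and 207067 reads. The part of these cell types in the levels of the collagen chains was not tested. All marker lists were chosen with earlier results of these data known, so their counts are a description and no measure of enrichment.

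**Figure D5:**
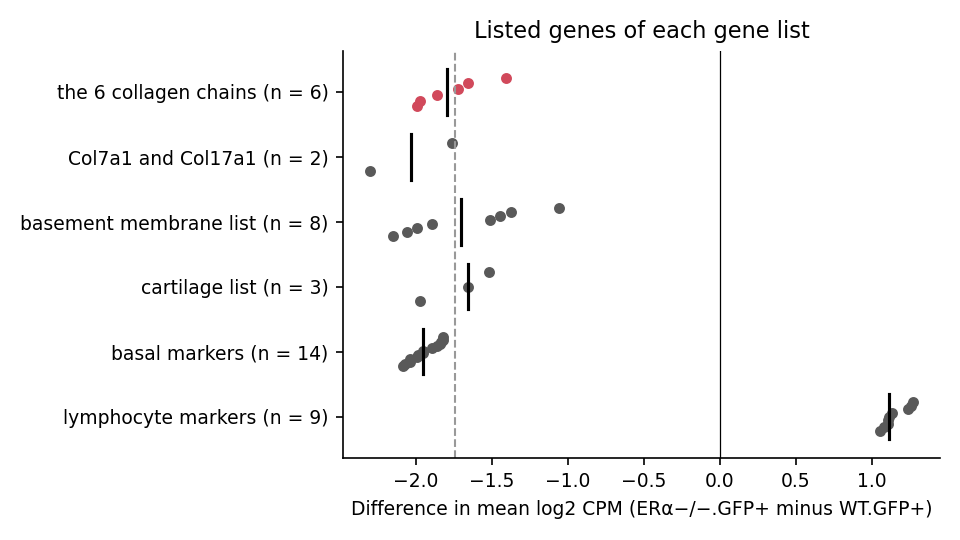
Difference in mean log2 CPM (ERα−/−.GFP+ minus WT.GFP+) of the listed genes of each gene list, 1 point per gene, with the median of each list as a black bar and the median of the 566 lower genes as a dashed line. The collagen chains and the lists of the matrix and of basal markers lie left of 0, and the 9 lymphocyte markers lie right of it, between 1.06 and 1.27.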

How the data were processed

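RNA of FACS-sorted GFP+ cells was amplified with an ultra-low-input kit, sequenced as single-end reads of 85 nt and aligned by the authors to mm10 with HTSstation. Counter, annotation and use of strand are not given in the sources used here. In ASAP, the authors filtered for top expressed genes and compared genotypes with edgeR. The 2 deposited tables hold the genes past their thresholds with, per genotype, the authors' mean of the raw counts (all 1302 values were whole when multiplied by 3, within 0.001) and the authors' mean of log2 CPM. Columns with the authors' fold change, p-value and FDR were not used, since they hold the study's own comparison.

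Differences were taken between the mean log2 CPM values. Depth per sample was the median of mean count over CPM over listed genes at a mean of 1000 reads or more (220 in WT.GFP+, 140 in ERα−/−.GFP+). Ratios of summed reads had exact conditional binomial intervals at the 95% level, and the calculation was checked on simulated data. The simulated samples differed by counting error and depth only, so the check does not bear on other spread between samples. Alternatives were other scales, depths, filters, fold thresholds and lengths. Genes matched GENCODE M21 for 650 of 651 identifiers. Named genes were the 6 chains, listed genes of the gene and marker lists (values for at most 4 of each list, by WT.GFP+ mean count), the closest listed gene and the adjacent genes of each chain. The values of 1 gene that this rule names are not reported here. Members, lists and rules were chosen with earlier results of these data known. Protein sequences were not used here. Values were computed in Python 3.11.15 with scipy 1.17.1, pandas 2.3.3 and numpy 2.4.6, and plotted with matplotlib 3.10.9.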

Additional observations from a re-analysis of the deposited data

How the results depend on the processing

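Every chain was lower in ERα−/−.GFP+ MECs in each of the 3 alternative scalings of the mean counts. A chain had to differ to be listed, so the scalings bear on the size of the differences and could not be expected to change their direction. The difference of Col4a5 moved by more than its counting error, from −1.99 to −1.88 with the depth taken from genes of at least 1000 reads, −1.90 with genes of at least 100 reads and −1.77 with no scaling for depth. With the depth from genes of at least 100 reads, Col9a2 moved to −1.78 and Col9a3 to −1.84. More than 3-fold in place of 4-fold raised the count of chains from 0 to 5, and depth-scaled mean counts raised it to 1, Col4a6. With the longest transcript as the length, 4 of the 6 chains kept their place in the order of levels, since Col9a2 and Col9a3 changed places. A minimum mean count of 10 in both genotypes left 479 of the 566 lower genes, and, chosen after seeing the data, it changed no count of a gene list. Leaving out single replicates was not run, because the values used are means over the samples of a genotype. No paired analysis was run, because no values per sample were used. The genotypes share only 1 replicate number, and the sample titles do not say which samples came from the same host.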
